A study of Eutrema with 12 samples.

Results

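The cauline leaves of 3 individual plants of Yukon Thellungiella (Thellungiella salsuginea, also named Eutrema) harvested in the field in 2003 were compared with cauline leaves of cabinet plants of the same ecotype. The comparison is made of 6 arrays of the 12 in the series, titled field 2003 A, B and C, each with a dye-reversed partner, so that 2 arrays measured each plant and n = 3 plants. The other 6 arrays hold 3 field plants of 2005, with the same kind of cabinet control.

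The field 2003 plants were mature and flowering, were taken from saline soil in a season that the study describes as dry, and were not pooled. The cabinet plants were 12 weeks old and without a stress treatment. Field mRNA was amplified once before labelling and cabinet mRNA was not, so growth site and amplification cannot be told apart in any ratio given here. It is unstated whether a single cabinet RNA was hybridized against more than 1 field plant, and if so, the spread between cabinet plants is not part of the errors. Channel 2 held the field RNA and channel 1 the cabinet RNA on every array, and each value is the log2 ratio of field over cabinet, in which 1 stands for 2-fold higher and -1 for 2-fold lower in the field. In whole leaves, fewer cells of a type and less RNA per cell cannot be told apart.

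Cauline leaves are the stem leaves that accompany flowering. In the related Arabidopsis, water deficit and cold act partly through abscisic acid (ABA), whose synthesis starts from xanthophyll pigments, and partly through transcription factors of the CBF/DREB family that bind the promoters of cold- and dehydration-responsive genes. The proteins made in response include calcium-binding and membrane-protecting proteins, enzymes of sucrose synthesis and water channels, and several of these genes were spotted by name on the array.

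Each array held 14688 spots, of which 13449 carried one of 4279 cDNA names, and 4097 names (95.7%) stood on 3 spots at 1 position. Only 28 cDNAs carried a gene name, and 4251 carried clone names with no gene given for them in the files. Several clones may stand for 1 transcript, so counts of cDNAs are not counts of genes. The median spot of the 2003 arrays was 7.40 to 23.3 times as bright as its local background in the field channel and 7.85 to 35.4 times in the cabinet channel. The median brightness of the spots without a name, the content of which the sources used here leave unexplained, was 3.86 times background in the field channel and 4.35 times in the cabinet channel. No more than that was reached in either channel by 159 cDNAs (3.72%), averaged over their spots, and these are called dim below. A cDNA with a large difference is bright in 1 channel and is then not dim, so dim cDNAs have small ratios by definition. The 2003 arrays were scanned on 4 days and the 2005 arrays on 2 others. The arrays of plant A were scanned on 2 days and those of B and C on 1 day each, so that plant and scan day cannot be told apart for B and C.

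The first question was how many transcripts differed between field 2003 and cabinet leaves. The spread of each cDNA was estimated from the plants of both years, and differed between the years by a factor common to all cDNAs. At a Benjamini-Hochberg adjusted p under 0.05 (limma, 6 plants with a mean for each year) and at least 1.5-fold, 385 of the 4279 cDNAs (9%) differed. Of these, 238 (5.56%) were higher and 147 (3.44%) lower in the field, and all 385 had the same sign in 3 of 3 plants. The higher cDNAs had a median change of 3.17-fold and the lower ones of 2.54-fold. At least 8-fold was reached by 36 higher and 12 lower cDNAs, and the extremes were 24.4-fold higher and 16.5-fold lower. The cabinet channel of 9 higher cDNAs and the field channel of 1 lower cDNA were no brighter than the unnamed spots.

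This count depended on the fit and on the plants used. With limma on the 2003 plants alone, no cDNA passed (lowest adjusted p 0.0514), although 1118 had an unadjusted p under 0.05, against 1239 in the fit with both years. Without plant A of 2003 it was 12 cDNAs, without B 137 and without C 63, and without plant A, B or C of 2005 it was 196, 214 and 265.

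**Figure D1:**
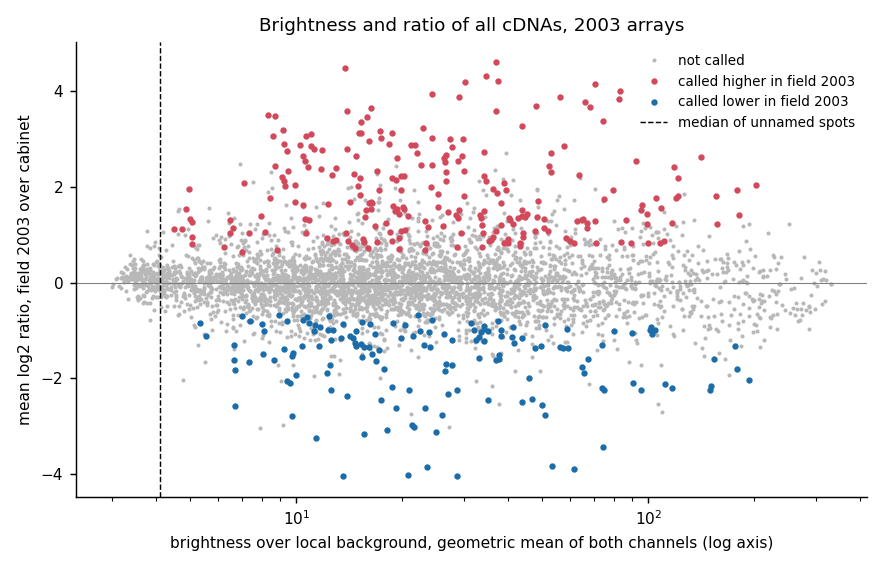
Mean log2 ratio of field 2003 over cabinet (vertical axis, mean of 3 plants) of the 4279 cDNAs against brightness over local background (horizontal log axis, geometric mean of both channels on the 6 arrays of 2003). The 238 higher cDNAs (red) and 147 lower cDNAs (blue) lie to the right of the median of the unnamed spots (dashed line).

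The cDNAs were ranked by brightness and cut into 5 classes of equal size. In the dimmest class 29 of 856 cDNAs were called (3.39%), and in the brighter classes 70, 94, 102 and 90, in order of brightness. The median size of the ratio grew in the same order, with 0.21, 0.35, 0.37, 0.43 and 0.47 on the log2 scale, and the median SD between plants was 0.28, 0.35, 0.40, 0.40 and 0.49. Bright cDNAs thus had larger ratios and a larger spread between plants.

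The 3 field 2003 plants differed from each other in the size of their ratios. Plant B had 1185 cDNAs (27.7%) that were at least 2-fold higher or lower than in the cabinet, plant A had 613 (14.3%) and plant C had 576 (13.5%). The SD of the log2 ratios over all cDNAs was 0.84 in plant A, 1.23 in plant B and 0.75 in plant C. Of the 385 called cDNAs, 260 had their largest ratio in plant B, 65 in plant A and 60 in plant C. The arrays of the plants differed as well. Median brightness was lowest for plant B, at 12.3 and 7.40 times background in the field channel of its arrays. Saturated spots numbered 231 and 466 on the arrays of C, 100 and 126 in A and 83 and 102 in B. Whether this bears on the size of the ratios was not tested. Across cDNAs, which are not independent replicates, log2 ratios of A and B correlated at r = 0.55, those of A and C at 0.58 and those of B and C at 0.70 (4279 cDNAs, which share the array, the amplification step and possibly the cabinet RNA). The 2 arrays of 1 plant, which share its RNA, correlated at 0.87 in A, 0.96 in B and 0.87 in C.

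In all, 1158 cDNAs were higher and 1112 lower in 3 of 3 plants, and 2009 (47.0%) had plants of both signs. At least 2-fold with the same sign in 3 of 3 plants was reached by 232 cDNAs (5.42%), 160 higher and 72 lower, and 196 of these were among the 385 called. The median SD between plants was 0.38 in 2003 and 0.24 in 2005.

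The ratios of plants A and B lay on opposite sides of 0 for some cDNAs. If different cabinet RNA was used for them, field and cabinet plants cannot be told apart as the source. At least 2-fold higher in A and at least 2-fold lower in B were 38 cDNAs, with a median log2 ratio of 1.79 in A, -2.30 in B and -0.064 in C. All 38 were above 0 on both arrays of A and below 0 on both arrays of B, which their choice on the mean of both arrays largely fixes. Higher in B and lower in A by the same limits were 8 cDNAs, and the other ordered pairs of 2003 plants had 3 to 10, against 0 to 5 in the ordered pairs of 2005 plants. None of the 38 was called. By clone name, 16 began with cld, 10 with slt and 12 with other letters, where all 4279 cDNAs held 1974 cld and 653 slt clones. These cDNAs were picked for their values, and no test applies to them.

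**Figure D2:**
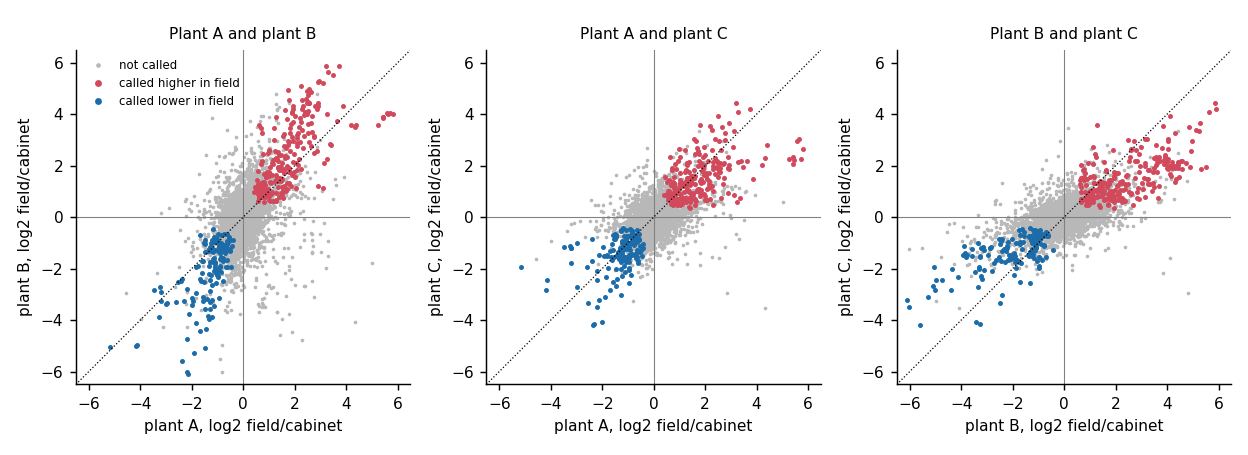
Log2 ratios of field 2003 over cabinet of the 4279 cDNAs in plants A and B, A and C, and B and C, with the line of equal ratios dotted. The called cDNAs (red higher, blue lower) share a sign in the 3 plants and mostly reach farther in plant B, and a group of cDNAs lies at the lower right of the first panel, higher in A and lower in B.

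The second question was which transcripts of known name differed. Of the 28 gene-named cDNAs, 1 was called, RD20, and 5 had an unadjusted p under 0.05, against 9% called and 29% with an unadjusted p under 0.05 over all cDNAs. Of the 28, 13 were higher in 3 of 3 plants and 5 were lower in 3 of 3 plants. Dim were 7 of the 28.

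The list of ABA, dehydration and cold response genes held 12 cDNAs, of which 1 rose, none fell and 11 did not pass, with a median log2 ratio of 0.070 beside -0.0028 over all 4279 cDNAs. RD20, which in Arabidopsis encodes a calcium-binding caleosin induced by dehydration and ABA, had log2 ratios of 2.74, 3.12 and 1.51 in field plants A, B and C. All 3 plants were more than 2-fold above the cabinet, with B highest and C lowest. The mean was 2.46 ± 0.84 (SD, n = 3), or 5.49-fold (95% interval 3.21 to 9.38), with a limma adjusted p of 0.0159. Before normalization between the dyes, the background-corrected intensities were 3594, 5305 and 5562 in the field channel and 1059, 713 and 2561 in the cabinet channel, so that C had the brightest field signal together with the brightest cabinet signal. The dye-reversed array gave the higher ratio in each plant (3.08 against 2.41 in A, 3.39 against 2.85 in B and 1.91 against 1.11 in C), and the 3 spot positions gave 2.60, 2.15 and 2.63. Without plant A the adjusted p was 0.0656 at a log2 ratio of 2.31, and with the 2003 plants alone it was 0.0676.

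COR15, a cold-regulated chloroplast protein that protects membranes in freezing leaves, had 1.44, 0.49 and 0.36 in plants A, B and C. All plants were above 0 and A stood apart, and with 0.76 ± 0.59 (SD, n = 3) the ratio did not pass (limma adjusted p 0.379). Its spot positions differed in brightness: 1 position was above the unnamed spots, in the field channel only, and gave 1.59. Its brightness was 6.29 times background in the field and 4.19 in the cabinet channel. Both dim positions gave 0.42 and 0.27. With the dim positions left out, the ratio of 1.59 did not pass either (limma adjusted p 0.154). That position was kept through the channel in which it is high, so its ratio alone is no separate evidence.

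ZEP, a zeaxanthin epoxidase that acts in the xanthophyll cycle and early in ABA synthesis, had -0.32 in plant A, 0.77 in B and 0.82 in C. Plant A was below the cabinet and the other plants above it, at each of the 3 spot positions, and the mean of 0.42 ± 0.64 (SD, n = 3) had a limma adjusted p of 0.332. AAO3, the aldehyde oxidase of the last step of ABA synthesis, and the like-spelled AA03 had means of -0.023 and 0.10, with plants on both sides of 0. The transcription factors CBF, CBF1 and DREB1A of the cold response had means of -0.10, 0.039 and -0.093, and the other members DEHYDRIN, DEHDRIN, RAV1 (an AP2/B3 factor) and ZAT12 (a zinc finger factor) had means of 0.019, -0.033, 0.28 and 0.23. These 7 lay within 0.36 of 0 in every plant. CBF, RAV1 and AA03 were dim at every position, so that a small difference in them could have been missed at this signal. DEHYDRIN was dim on average, with 1 of 2 positions above the unnamed spots in the cabinet channel, which gave 0.040.

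**Figure D3:**
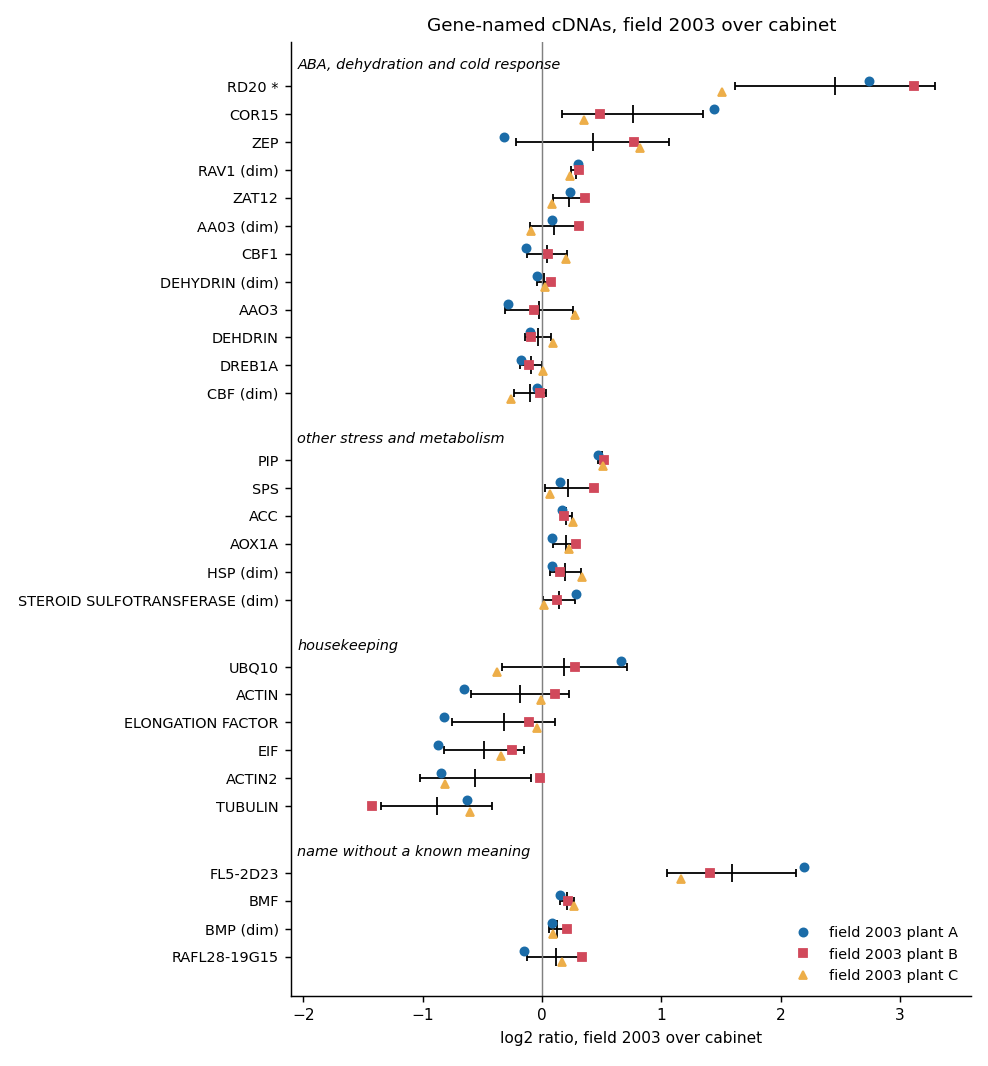
Log2 ratio of field 2003 over cabinet (horizontal axis) of the 28 gene-named cDNAs by list, with plant A as circles, B as squares, C as triangles, and the mean ± SD of 3 plants as a bar. RD20 (starred) is the called cDNA, names marked dim were on average no brighter than the unnamed spots, and 4 of 6 housekeeping cDNAs had all plants below 0.

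The list of other stress and metabolism genes held 6 cDNAs, of which none passed. All 6 were above 0 in 3 of 3 plants, with means of 0.14 to 0.50, where 1158 of all 4279 cDNAs were above 0 in 3 of 3. The unnamed spots were above 0 in every plant as well, with 0.021, 0.13 and 0.13 in A, B and C. Whether the shared sign belongs to the list was not tested. PIP, named after the plasma membrane aquaporins, was the most even of the gene-named cDNAs, with 0.47, 0.52 and 0.51 in plants A, B and C. Its mean of 0.50 ± 0.029 (SD, n = 3), or 1.41-fold, had an unadjusted p of 0.0168 and a limma adjusted p of 0.0988, below the 1.5-fold limit as well. The 3 positions of PIP, the brightest of them 169 times its background in both channels, gave 0.47, 0.55 and 0.48. SPS, which makes sucrose phosphate, the precursor of sucrose, had 0.15, 0.44 and 0.066 (limma adjusted p 0.452). Its brightest position gave 0.47 where the others gave 0.12 and 0.069. AOX1A (the mitochondrial alternative oxidase), HSP (heat shock protein), ACC and STEROID SULFOTRANSFERASE had means of 0.20, 0.19, 0.20 and 0.14. The cabinet signal of each was below that of the unnamed spots. AOX1A had 0.44 on the first arrays alone and -0.043 on the dye-reversed arrays alone. HSP and STEROID SULFOTRANSFERASE were dim on average. Of their positions, 2 of 4 and 1 of 3 were above the unnamed spots in at least 1 channel, and gave 0.40 and -0.034 for HSP and 0.21 for STEROID SULFOTRANSFERASE.

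None of the 6 housekeeping cDNAs passed, but 4 were below 0 in 3 of 3 plants, and the median log2 ratio of the list was -0.40, beside -0.0028 over all cDNAs. TUBULIN, of the microtubules, had -0.63, -1.42 and -0.60 in plants A, B and C, all below the cabinet and B the lowest. Its mean of -0.88 ± 0.47 (SD, n = 3) had an unadjusted p of 0.0073 and a limma adjusted p of 0.0643. Of its 3 positions, 2 gave -1.70 and -1.01 and the dim one gave 0.062. With the dim position left out (a choice made with the values known), the ratio was -1.36 with a limma adjusted p of 0.0390. It also passed in 4 settings that kept this position, among them 1 spread for both years (limma adjusted p 0.0300), and in none of the others of the 24 tried.

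ACTIN2, of the actin cytoskeleton, had -0.85, -0.016 and -0.81. Plants A and C were alike and B lay at the cabinet level, and the mean of -0.56 ± 0.47 (SD, n = 3) had a limma adjusted p of 0.138. EIF and ELONGATION FACTOR, named after factors of translation, had means of -0.49 and -0.32, with plant A lowest in both (-0.87 and -0.82). ACTIN had -0.65 in plant A, 0.11 in B and -0.010 in C. UBQ10, a polyubiquitin, had 0.66 in A, 0.27 in B and -0.38 in C at a mean of 0.19 (limma adjusted p 0.781), and its 5 positions ran from 0.61 to 0.75 in A, from 0.11 to 0.59 in B and from -0.48 to -0.20 in C. Its positions were thus all above 0 in A and B and all below 0 in C.

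Of the 4 names without a known meaning, none passed. FL5-2D23 had the second highest mean of the 28, with 2.20, 1.41 and 1.17 in plants A, B and C, all more than 2-fold above the cabinet. The mean of 1.59 ± 0.54 (SD, n = 3) had a limma adjusted p of 0.0715. A single position carried it, with a log2 ratio of 4.02 at a brightness of 59.1 times background in the field and 7.28 in the cabinet channel, while the other positions gave 0.36 and 0.40 near the level of the unnamed spots. With the dim position left out (a choice made with the values known), the mean was 2.19 with a limma adjusted p of 0.0460. RAFL28-19G15, BMF and BMP had means of 0.12, 0.21 and 0.13.

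The gene-named cDNAs occupied 70 spot positions, and 25 of these were no brighter than the unnamed spots in either channel. All 25 dim positions had ratios between -0.17 and 0.42, while 7 of the 45 brighter positions were beyond 2-fold. A position with a large difference leaves the dim class through its brighter channel, so this contrast follows in part from the definition. The mean over positions lay nearer to 0 than the brightest position for several cDNAs, among them TUBULIN, COR15, SPS and FL5-2D23. For others, such as EIF and HSP, it lay farther from 0. Of 161 clones spotted at several positions, 11 had positions more than 1 log2 unit apart, and the median range between positions was 0.20.

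**Figure D4:**
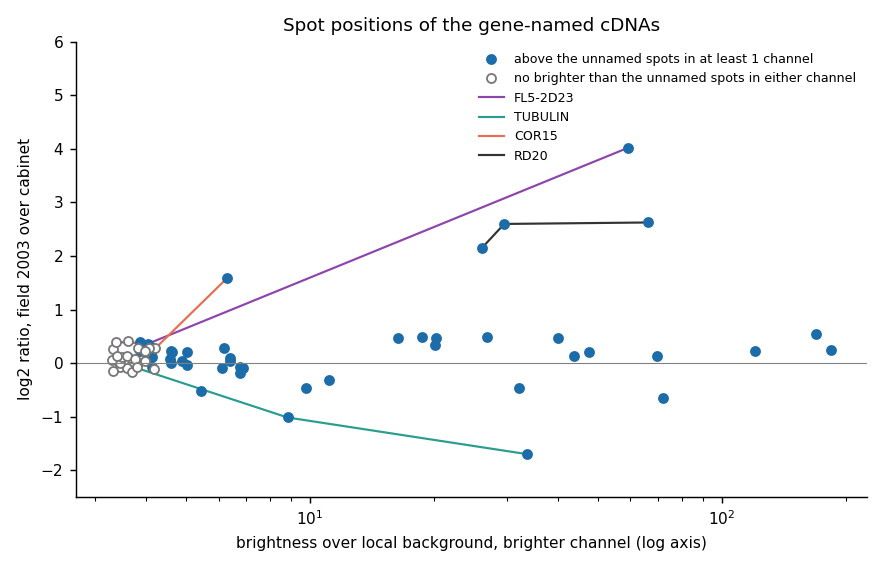
Log2 ratio of field 2003 over cabinet (mean of 3 plants) at the 70 spot positions of the gene-named cDNAs against the brightness over background of the brighter channel (log axis), with lines joining the positions of 4 cDNAs. The 25 dim positions (open) lie between -0.17 and 0.42, and the positions of FL5-2D23 run up to 4.02 and those of TUBULIN down to -1.70.

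The sources used here do not explain the letters in clone names. The clones are described by them beside the 9% called over all cDNAs, 5.56% higher and 3.44% lower. Of 135 sc clones 26 were higher (19.3%) and 1 lower (0.74%), and their median log2 ratio was 0.075 in plant A, 0.50 in B and 0.25 in C. Of 477 drtg clones 53 were higher (11.1%) and 10 lower (2.10%), and of 793 drt clones 60 were higher (7.57%) and 27 lower (3.40%). Higher and lower calls were nearly equal among the 1974 cld clones, with 81 and 75. The 653 slt clones had 12 higher (1.84%) and 26 lower (3.98%), and the 145 sltg clones 3 (2.07%) and 5 (3.45%). In both groups the lower calls were near the share over all cDNAs, and the higher calls were below it. The 38 sd clones had 0 higher and 3 lower (7.89%). The 36 ss clones had 2 higher (5.56%, the share over all cDNAs) and none lower.

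The largest changes were counted by name as well, beside the number of clones spotted. Of the 36 cDNAs at least 8-fold higher, 12 were drt, 11 drtg, 8 sc and 5 cld clones (of 793, 477, 135 and 1974 spotted). Of the 12 at least 8-fold lower, 8 were cld, 2 slt, 1 drtg and 1 sd clones (of 1974, 653, 477 and 38 spotted). The sc clones were the only ones of the 8 name groups with a higher median brightness in the field than in the cabinet channel, 9.55 against 7.75 times background, and they were the dimmest group in both.

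**Figure D5:**
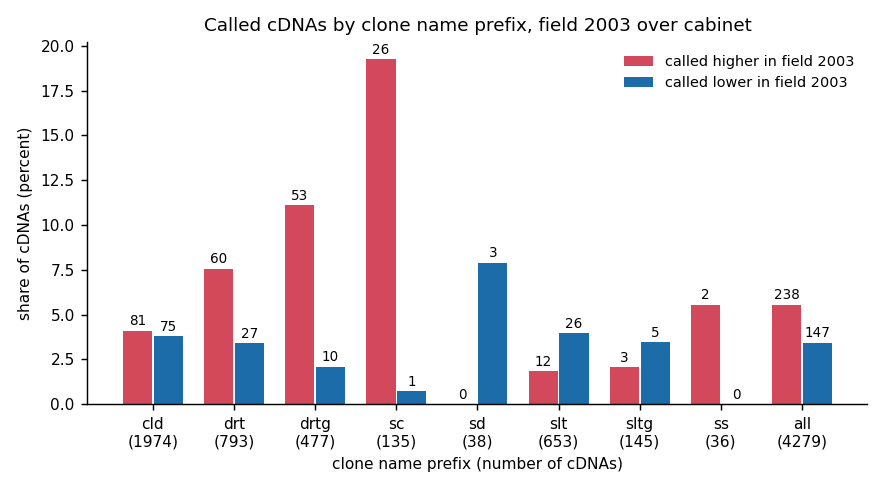
Share of cDNAs called higher (red, left) and lower (blue, right) in field 2003 than in the cabinet by clone name prefix, with the number of cDNAs called above each bar and the number spotted in brackets. The sc clones have 26 higher and 1 lower call, and all cDNAs together 238 and 147.

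The 2 clones with the highest and the 2 with the lowest ratios are given as examples of the size of the changes. sc3_c03 had 3.74, 5.88 and 4.20 in plants A, B and C, a mean of 4.61 ± 1.13 (SD, n = 3) or 24.4-fold, with a limma adjusted p of 0.0132. sc3_e03 had 3.20, 5.86 and 4.42, a mean of 4.49 ± 1.33 (SD, n = 3) or 22.5-fold, with a limma adjusted p of 0.0307. Plant B was the highest and A the lowest for both sc clones. slt6_f05 had -2.37, -5.60 and -4.17, a mean of -4.05 ± 1.62 (SD, n = 3), with a limma adjusted p of 0.0169. cld8_a04 had -5.17, -5.05 and -1.92, a mean of -4.05 ± 1.84 (SD, n = 3), with a limma adjusted p of 0.0353, and its field signal of 4.27 times background was close to that of the unnamed spots. Plant A was the least changed for slt6_f05 and C for cld8_a04. The calls were lost without plant A or C of 2003 for sc3_c03, without any 1 plant of 2003 or plant A of 2005 for sc3_e03, without C of 2003 for slt6_f05, and without any 1 plant of 2003 or B of 2005 for cld8_a04.

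The third question was where the 2003 plants differed from those of 2005, for which each year's own values are set side by side because the years may share cabinet RNA. In the test of the difference between years, 89 cDNAs (2.08%) passed, 36 with a higher ratio in 2005 and 53 with a lower one, and 37 of these 89 were called in 2003 and 58 in 2005. With the plant letter as a block across years it was 526, which included all 89. In the fit of both years without the block, 1640 cDNAs (38.3%) were called in 2005 against the cabinet, beside 385 in 2003.

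RD20 had 1.29, 0.82 and 0.93 in plants A, B and C of 2005, against 2.74, 3.12 and 1.51 in 2003. The plants of the years did not overlap, and the difference of -1.44 had a limma adjusted p of 0.0826 and, with the letter block, of 0.0406. COR15 had 3.19, 1.83 and 3.64 in 2005, against 1.44, 0.49 and 0.36 in 2003. Every plant of 2005 was above every plant of 2003 (difference 2.13, limma adjusted p 0.0979, with the letter block 0.0474). SPS had 1.24, 1.30 and 0.99 in 2005, against 0.15, 0.44 and 0.066 in 2003 (difference 0.96, limma adjusted p 0.0636, with the letter block 0.0238). RAFL28-19G15 had 0.98, 1.31 and 1.19 in 2005, against -0.15, 0.33 and 0.16 in 2003 (difference 1.04, limma adjusted p 0.0592, with the letter block 0.0215). PIP had -0.31, -0.051 and -0.23 in 2005, against 0.47, 0.52 and 0.51 in 2003, so that its plants lay on opposite sides of the cabinet (difference -0.70, limma adjusted p 0.0843, with the letter block 0.0414). None of the 28 gene-named cDNAs passed the test of the difference without the block, and these 5 passed only with it. The pairing of letters was taken from these same values, and the labels give no shared origin. The values with the block are therefore no separate evidence of a difference between years.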

How the data were processed

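The authors deposited QuantArray tables of linear intensity per spot, with the local background, for each channel, and a table of processed log10 ratios whose normalization the sources used here do not state. The log10 values followed the scanner ratios of field over cabinet (r = 0.950 to 0.995), had column medians between -0.0188 and 0.0126, and were used as an alternative only. In limma 3.58.1 (R 4.3.3), background was corrected with normexp (offset 50), log2 ratios were normalized by loess in each array with control spots at weight 0, and values were averaged over the spots of a cDNA, then over both arrays of a plant. The 6 plants were fitted with a mean per year and weights by year (0.639 for 2003, 1.57 for 2005), with 4 residual and 2.80 prior degrees of freedom. The p-values rest on a spread between plants that was estimated per cDNA from both years and moderated over all cDNAs. It is not the SD (n = 3) printed beside them.

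Plants with the same letter in both years deviated together from their year means, at r = 0.58 (A), 0.24 (B) and 0.31 (C). A fit that paired plants by letter, as a random block, was therefore run as an alternative. The main fit held no block. The pairing comes from these values and the labels give no shared origin. The number of arrays limits the precision. Alternatives changed the estimate of the spread, the block, the plants, the dye, the background, the normalization and the spots used. Named cDNAs were all gene-named ones and the 2 highest and 2 lowest called clones. Members and lists were chosen with earlier results of these data known.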

Additional observations from a re-analysis of the deposited data

Results flagged for a closer look

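Differences between the years were marked where the test of the difference passed or where every plant of 1 year lay on the opposite side of 0 from every plant of the other. The test passed for 89 of 4279 cDNAs, none of them gene-named or among the named clones. With the plant letter as a block it passed for 526, which included 5 gene-named cDNAs and none of the named clones. The pairing of letters was taken from these same values, so the block gives no separate evidence. PIP was below 0 in 3 of 3 plants of 2005 and above 0 in 3 of 3 plants of 2003, and the difference of -0.70 had a limma adjusted p of 0.0843 and, with the letter block, of 0.0414. RAV1 had -0.22, -0.35 and -0.13 in 2005, against 0.30, 0.31 and 0.24 in 2003. The difference of -0.51 had a limma adjusted p of 0.148, with the cDNA dim in 2003. Its mean in 2003 was 0.57 on the first arrays alone and -0.0043 on the dye-reversed arrays alone. CBF had 0.0078, 0.26 and 0.18 in 2005, against -0.038, -0.015 and -0.26 in 2003, and the difference of 0.25 had a limma adjusted p of 0.443 for a cDNA that was dim in 2003. Opposite signs in all plants of the years were found for 305 of the 4279 cDNAs, of which 41 passed the test of the difference without the block.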

How the results depend on the processing

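The counts of called cDNAs (385, of which 238 higher and 147 lower) changed most with the fit, the plants used and the calling rule. They were 0, 0 and 0 with 2003 fitted alone, 743, 430 and 313 with 1 spread for both years, 950, 528 and 422 with scan day as a random block at the level of arrays, 1158, 628 and 530 with arrays as independent replicates, and 122, 90 and 32 at log odds above 0. Leaving out 1 plant of 2003 gave 12 to 137, 9 to 99 and 3 to 38, and leaving out 1 of 2005 gave 196 to 265, 132 to 173 and 64 to 92. The fits with 1 spread and with independent arrays each included all 385. Other settings of background, normalization, spots and dye gave 324 to 530 cDNAs. With the plant letter as a replicate block the counts were 371, 230 and 141, and the number of differences between years was 526 in place of 89. That block changed no call of a named cDNA in 2003. RD20 was called in 22 of 24 settings, with ratios of 2.12 to 2.93. It missed with 2003 fitted alone (2.46), and leaving out 1 plant of 2003 gave 2.13 to 2.93. TUBULIN and FL5-2D23 were called in 5 of 24 settings each and ACTIN2 in 1. The settings with only spots ending in G and with only positions above the unnamed spots were added after seeing the data. The cause of these shifts was not tested. Dim spots limit the CBF, RAV1 and AA03 ratios.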

Other observations

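The positive control spots, the content of which the sources used here leave unexplained, had a mean log2 ratio of field over cabinet of 0.37 in plant A, 0.020 in plant B and 0.53 in plant C at full strength (432 spots), and of 0.34, 0.14 and 0.48 at a dilution of 1:8 (144 spots). At 1:16 their brightness was 3.08 times background in the field channel and 3.38 times in the cabinet channel, below the unnamed spots, and had 0.10, 0.21 and 0.31. These spots had weight 0 in the normalization and entered no test.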
